A study of Gallus gallus with 8 samples.

Results

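The nuclear genes of oxidative phosphorylation were compared between the trachea of a hydrogen sulfide (H2S) exposed chicken group and that of a control group. They were chosen by name alone, as every identifier of the deposited gene table that begins with NDUF, UQCR, ATP5, SDHA, SDHB, SDHC or SDHD, or with COX and a number from 4 upward. The rule gave 81 of the 26296 genes in the table, of which 61 encode structural subunits of complexes I to V and 20 encode assembly factors or related proteins. These are not all the nuclear subunits, and SDHD, for example, was not found under that name. Of the 81, 78 reached 20 counts in at least 1 library and are called measured here, against 15268 measured genes in all. The series profiled chicken (Gallus gallus) trachea at 42 days of age. Exposed birds lived in a chamber that was supplied with H2S gas without interruption, kept between 3.5 and 4.5 mg/kg for weeks 0 to 3 and between 19.5 and 20.5 mg/kg for weeks 4 to 6, and the control chamber had no added H2S. The labels give no strain, sex, or number of birds behind each library, and a chamber effect cannot be told apart from the gas. There was 1 mRNA library per group, both numbered 3, so no difference below has a replicate check, no test was possible, and every ratio describes 2 libraries.

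Oxidative phosphorylation takes electrons from NADH at complex I and from succinate at complex II, passes them through ubiquinone, complex III and cytochrome c to oxygen at complex IV, and uses the resulting proton gradient to make ATP at complex V, the ATP synthase. Most subunits are encoded in the nucleus and imported, while the most hydrophobic core subunits are encoded in mitochondrial DNA. H2S is known both as an inhibitor of complex IV and, at low levels, as an electron donor to ubiquinone through sulfide:quinone oxidoreductase. In the airway, cilia and muscle are large users of ATP.

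The libraries held 20839798 (H2S) and 18875586 (control) counts. Values below are raw counts, and each ratio is H2S over control after scaling by trimmed mean of M-values (TMM), with a 95% exact interval that covers counting error only. Levels are given as CPM, the count per 1000000 counts of the TMM-scaled library. Markers of trachea tissues were present in both libraries, among them COL2A1 of cartilage at 198018 and 165713 counts, ACTA1 of skeletal muscle at 123665 and 67180, and FOXJ1, the master regulator of motile cilia, at 2573 and 2772 (H2S and control). These are bulk tissues, so fewer cells of a type and less RNA per cell cannot be told apart in any value below.

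The oxidative phosphorylation genes lay slightly lower in the H2S library, by small amounts shared across many members. Of the 78 measured, 58 (74.4%) had a ratio below 1, where 50.1% of all measured genes did. The median ratio was 0.894, a log2 ratio of -0.16, beside a median of 0.00 over all measured genes. None of the 78 was 2-fold apart: 0 were at least 2-fold lower, where 3.71% of all measured genes were, and 0 at least 2-fold higher, where 4.71% were. At the smaller threshold of 1.2-fold, chosen after the data were seen, 25 members (32.1%) were lower and 11 (14.1%) higher, against 23.6% and 24.5% of all measured genes. The counting interval lay below 1 for 36 members and above 1 for 8, against 27.7% and 27.6% of all measured genes. Added together, the 81 genes had 64619 counts in the H2S library against 72646 in the control library, a summed ratio of 0.834 (0.825 to 0.843).

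Structural subunits had ratios below 1 in a larger share than assembly factors did. Of 60 measured structural subunits, 48 (80.0%) had a ratio below 1 and the median log2 ratio was -0.17. Of 18 measured assembly and related factors, 10 (55.6%) did, and the median was -0.03. Ratios below 1 were more frequent among the better counted members: 11 of the 12 members with a mean count of at least 1000 were below 1 (91.7%, against 49.0% of all genes at that depth), while 11 of the 20 with a mean count under 200 were (55.0%, against 49.3%). All 12 of the best counted members were structural subunits, so the comparison by role and the comparison by depth overlap. Whether the structural and assembly groups, or the depth classes, differ between birds could not be tested with 1 library per group.

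**Figure D1:**
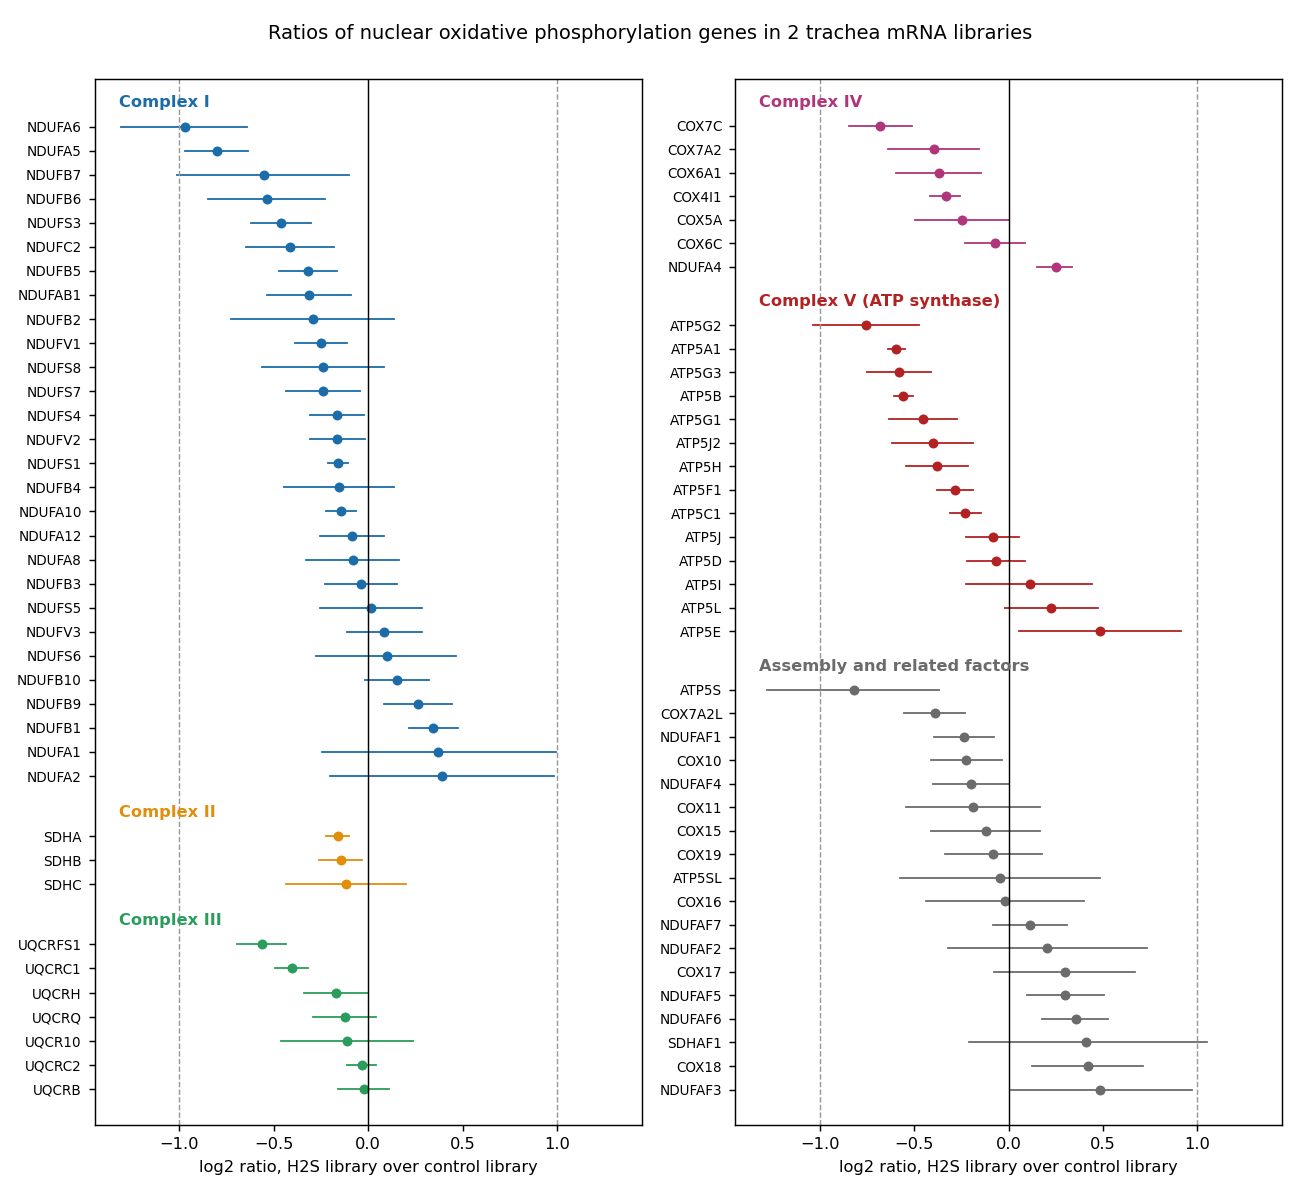
Log2 ratio (x axis, H2S library over control library) of 77 of the 78 measured genes, grouped by complex; points are ratios of TMM-scaled counts, horizontal lines are 95% counting intervals and dashed lines mark 2-fold. 57 points lie left of 0, none lies past a dashed line, and the ATP synthase genes ATP5A1 and ATP5B have the narrowest intervals among the low ratios.

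**Figure D2:**
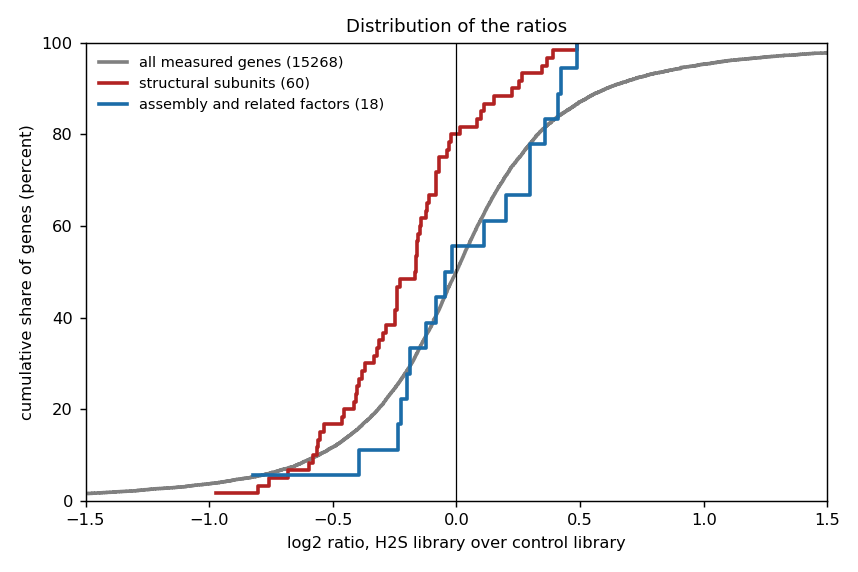
Cumulative share of genes (y axis, percent) at or below each log2 ratio (x axis), for all 15268 measured genes, the 60 structural subunits and the 18 assembly and related factors. The curve of the structural subunits reaches 80.0% at a log2 ratio of 0, that of the assembly factors 55.6% and that of all genes 50.1%.

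Complex V, the ATP synthase, had the lowest summed ratio of the 5 complexes. Of 14 measured members, 11 (78.6%) were below 1, against 50.1% of all measured genes, and the median log2 ratio was -0.33. The complex V genes together had 20775 counts in the H2S library against 26752 in the control library, a summed ratio of 0.728 (0.715 to 0.742). Without ATP5A1 and ATP5B, which hold most of these counts, the summed ratio was 0.839 (0.815 to 0.865). The F1 head of the enzyme, where ATP is made, is a ring of alpha and beta subunits around a central shaft. ATP5A1, which encodes the alpha subunit, had 6566 counts in the H2S library against 9310 in the control library, a ratio of 0.661 (0.641 to 0.683). ATP5B, which encodes the catalytic beta subunit, had 5954 and 8218 counts, a ratio of 0.679 (0.657 to 0.703). The 2 intervals overlap, so the partners of the ring were lower by amounts that counting error does not separate. The shaft genes did not share that size of difference. ATP5C1 (gamma) had 2402 and 2641 counts, a ratio of 0.853 (0.807 to 0.902), and ATP5D (delta) had 736 and 724, a ratio of 0.953. ATP5E (epsilon) had 119 and 80 counts, a ratio of 1.40 (1.04 to 1.88), the highest among complex V genes.

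The membrane part of the ATP synthase showed a similar division. The c ring, the rotor that protons turn, is encoded by ATP5G1, ATP5G2 and ATP5G3, which in mammals give the same mature protein from different precursors. All 3 were lower in the H2S library, with 453 and 582 counts for ATP5G1, 175 and 277 for ATP5G2 and 482 and 676 for ATP5G3 (H2S and control). Their ratios were 0.730, 0.592 and 0.669, and their summed ratio was 0.678 (0.627 to 0.733). These genes can share similar coding sequence, so the division of reads among them is less certain than their sum. In the peripheral stalk, which holds the head still, ATP5F1 (subunit b) had a ratio of 0.820 (0.768 to 0.876) from 1693 and 1936 counts, ATP5H (subunit d) 0.768 from 556 and 679, and ATP5J 0.943 from 842 and 837. The small membrane subunits went both ways. ATP5J2 (subunit f) had a ratio of 0.756 from 324 and 402 counts, ATP5I (subunit e) 1.08 from 160 and 139, and ATP5L (subunit g) 1.17 (0.987 to 1.39) from 313 and 251.

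Complex IV, cytochrome c oxidase, is the oxygen-consuming step and the one that H2S is known to inhibit. Its nuclear subunits surround a catalytic core that is encoded in mitochondrial DNA. Of 7 measured subunits, 6 (85.7%) had ratios below 1, where 50.1% of all measured genes did, and the median log2 ratio was -0.34. COX7C was lowest, with 498 counts in the H2S library against 748 in the control library, a ratio of 0.624 (0.556 to 0.700). COX4I1, the subunit through which ATP is known to regulate the enzyme, had 2402 and 2842 counts, a ratio of 0.793 (0.750 to 0.837). COX7A2 and COX6A1, the forms of their subunits found outside striated muscle in mammals, had ratios of 0.760 (261 and 322 counts) and 0.773 (305 and 370 counts). COX5A had 254 and 283 counts, a ratio of 0.842, and COX6C 660 and 651, a ratio of 0.951, with intervals that reached 1. NDUFA4 was the exception, at 2174 and 1719 counts and a ratio of 1.19 (1.11 to 1.26). It carries a complex I name but is known as a subunit of complex IV. Without NDUFA4, the summed ratio of the other 6 genes was 0.788 (0.756 to 0.820), and with it 0.886 (0.857 to 0.917). The table also lists COX7B under the identifier LOC771947, which the naming rule does not reach, with 1053 and 1224 counts and a ratio of 0.807 (0.742 to 0.877).

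Complex I, the NADH dehydrogenase, has the most subunits of the 5 complexes. Of 29 measured, 21 (72.4%) were below 1, against 50.1% of all measured genes. The complex I ratios ran from 0.510 to 1.31 around a median log2 ratio of -0.16. The 7 nuclear core subunits, which hold the flavin and the iron-sulfur clusters that move electrons, were all below 1, within the narrow range of 0.726 to 0.894. NDUFS1, the largest of them, had 5648 counts in the H2S library against 5922 in the control library, a ratio of 0.894 (0.862 to 0.928). NDUFS3 was lowest, with 568 and 734 counts and a ratio of 0.726 (0.649 to 0.811). NDUFV1, which binds NADH, had 828 and 923 counts, a ratio of 0.841, and its partner NDUFV2 had 746 and 784, a ratio of 0.892. NDUFS7 and NDUFS8, which carry iron-sulfur clusters near the ubiquinone site, had ratios of 0.847 and 0.846, the latter with an interval that included 1.

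The 22 supernumerary subunits of complex I found by the naming rule accounted for both ends of its range. Supernumerary subunits surround and stabilise the core. NDUFA6 had 119 counts in the H2S library against 219 in the control library, a ratio of 0.510 (0.404 to 0.640), the lowest of all 78 genes and just short of 2-fold. NDUFA5 had 477 and 781 counts, a ratio of 0.573 (0.510 to 0.643). NDUFB7, NDUFB6 and NDUFC2 followed, at 0.682 (72 and 99 counts), 0.689 (155 and 211) and 0.751 (278 and 347). NDUFAB1, the mitochondrial acyl carrier protein that binds NDUFA6 and NDUFB9 in the complex, had 315 and 367 counts, a ratio of 0.805. At the other end, NDUFA2 and NDUFA1 had ratios of 1.31 and 1.29 from 60 and 43 and from 55 and 40 counts, too few to separate from 1. NDUFB1 had 1116 and 826 counts, a ratio of 1.27 (1.16 to 1.39), and NDUFB9 575 and 449, a ratio of 1.20 (1.06 to 1.36). Those are the 2 complex I genes whose intervals lay above 1. NDUFA10, the best counted supernumerary member, had 2450 and 2540 counts, a ratio of 0.905 (0.855 to 0.957).

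**Figure D3:**
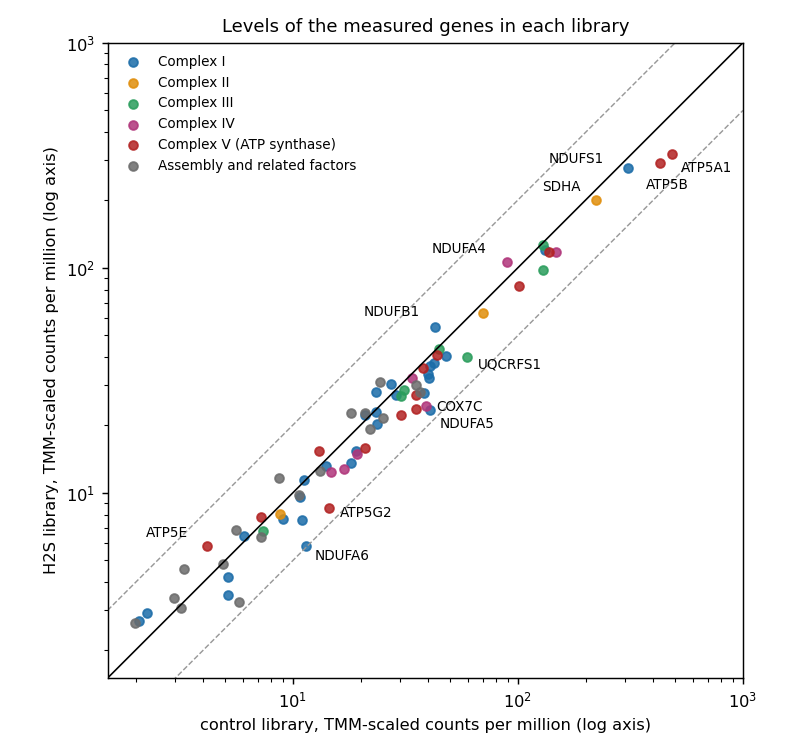
TMM-scaled CPM of each measured gene in the control library (x axis) and the H2S library (y axis), both on log axes and coloured by complex; the solid line marks equality and dashed lines mark 2-fold. ATP5A1 and ATP5B lie below equality at the high end, at 485 and 428 in the control library against 321 and 291 in the H2S library, while NDUFA4 and NDUFB1 lie above it.

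Every measured complex III and complex II gene had a ratio below 1, as did 50.1% of all measured genes. Complex III, which passes electrons from ubiquinone to cytochrome c, had a median log2 ratio of -0.12 over 7 genes and a summed ratio of 0.859 (0.832 to 0.886). Its lowest member was UQCRFS1, which encodes the Rieske iron-sulfur protein and is the only subunit measured here that carries electrons in this complex, with 820 counts in the H2S library against 1138 in the control library, a ratio of 0.676 (0.617 to 0.740). The core pair was uneven: UQCRC1 had 1996 and 2480 counts, a ratio of 0.755 (0.711 to 0.801), and UQCRC2 had 2589 and 2482, a ratio of 0.978 (0.926 to 1.03), so their intervals did not overlap. The small subunits UQCRH, UQCRQ, UQCR10 and UQCRB had ratios of 0.889, 0.917, 0.925 and 0.984, each with an interval that included 1. Complex II, succinate dehydrogenase, belongs both to the respiratory chain and to the citric acid cycle. SDHA, its flavoprotein, had 4066 and 4267 counts, a ratio of 0.894 (0.856 to 0.933), SDHB, its iron-sulfur protein, had 1291 and 1340, a ratio of 0.904 (0.836 to 0.976), and SDHC, a membrane anchor, had 165 and 168, a ratio of 0.921 (0.738 to 1.15). The 3 intervals overlap.

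The assembly and related factors, most of which build the complexes but do not stay in them, went both ways. Of 18 measured, 2 (11.1%) were at least 1.2-fold lower and 6 (33.3%) at least 1.2-fold higher, against 23.6% and 24.5% of all measured genes. NDUFAF3 (94 counts in the H2S library against 63 in the control library), NDUFAF6 (637 and 468) and NDUFAF5 (460 and 350), all needed for early steps of complex I assembly, had ratios of 1.40, 1.28 and 1.23, each with an interval above 1. NDUFAF1 and NDUFAF4 were on the other side, at 0.849 (0.760 to 0.949) and 0.871 (392 and 422 counts), the latter with an interval that included 1. NDUFAF7, NDUFAF2 and ATP5SL, a complex I factor in spite of its name, had ratios of 1.08, 1.15 and 0.969 with intervals that included 1. For complex IV, COX18, which inserts a core subunit into the membrane, had 238 and 167 counts, a ratio of 1.34 (1.09 to 1.64). The heme A enzymes COX10 and COX15 had ratios of 0.856 (0.751 to 0.976) and 0.919, and COX17, COX11 and COX19, which serve copper delivery, 1.23, 0.877 and 0.945. The intervals of COX15, COX17, COX11 and COX19 included 1. COX16 had 99 and 94 counts, a ratio of 0.988. SDHAF1, which helps to insert iron-sulfur clusters into SDHB, had 54 and 38 counts, a ratio of 1.33 (0.864 to 2.07). The 2 lower ones were related factors, and no complex I, II or IV assembly factor among these 18 was at least 1.2-fold lower. ATP5S, a coupling factor, had 67 and 111 counts, a ratio of 0.566 (0.412 to 0.773). COX7A2L, a supercomplex factor related to COX7A2, had 572 and 704 counts, a ratio of 0.762 (0.681 to 0.852). COX14 and COX20, below the count minimum, each had 17 counts in the H2S library against 6 in the control library. Of 22 assembly factors that carry other names, 12 (54.5%) were below 1, against 50.1% of all measured genes, and the median log2 ratio was -0.07. Their balance at 1.2-fold was the reverse, with 6 (27.3%) at least 1.2-fold lower and 1 (4.55%) at least 1.2-fold higher. The difference between these 2 small lists was not tested. The 22 ran from TMEM126A, at 0.648 (161 and 233 counts), to TIMMDC1, at 1.22 (940 and 720 counts), both complex I factors. HIGD2A, a complex IV assembly protein with a lower ratio, was not among the 22 and is given below with another list.

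The mitochondrially encoded partners could not be compared. All 13 protein genes of mitochondrial DNA are listed in the table at 0 in both libraries, including the 3 core subunits of complex IV. These transcripts are abundant in most tissues, so the zeros say nothing of their level here. ATP5A1W, the W chromosome copy of ATP5A1, was also at 0 in both libraries, as were the W-linked genes HINTW and SPINW. The counter is not given, so whether reads shared by ATP5A1 and that copy were dropped is not known.

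Other enzymes that feed the respiratory chain lay lower by similar or larger amounts. Of 18 genes of the citric acid cycle and pyruvate dehydrogenase, 17 (94.4%) had a ratio below 1, 9 were at least 1.2-fold lower and 0 at least 1.2-fold higher, and the median log2 ratio was -0.25. MDH2, mitochondrial malate dehydrogenase, was lowest, with 1945 counts in the H2S library against 2675 in the control library, a ratio of 0.682 (0.643 to 0.723). CS, citrate synthase, had 1388 and 1655 counts, a ratio of 0.787 (0.732 to 0.845). PC, pyruvate carboxylase, was the only one of the 18 above 1, at 1.05 (0.848 to 1.30). In fatty acid oxidation 10 of 12 genes (83.3%) were below 1, against the same 50.1%. They had a median log2 ratio of -0.20 and ran from ETFB at 0.661 to ECHS1 at 1.09. A separate, mixed list held 3 genes with other names, a subunit, an assembly protein and a transhydrogenase, and all 3 were below 1. Its median log2 ratio of -0.62 was the value of NNT. HIGD2A, a complex IV assembly protein, had 38 and 76 counts, a ratio of 0.469 (0.309 to 0.701), and USMG5, a small subunit of the ATP synthase, had 658 and 725, a ratio of 0.851 (0.765 to 0.947). NNT, the third, is the proton-driven transhydrogenase of the inner membrane and had 4758 and 6879 counts, a ratio of 0.649 (0.625 to 0.673). SLC25A4, the ADP/ATP carrier of striated muscle, had 8101 and 12395 counts, a ratio of 0.613 (0.596 to 0.630), while the related carriers SLC25A5 and SLC25A6 were close to equal, with an interval of 0.901 to 1.11 for SLC25A5 and a ratio of 1.02 for SLC25A6.

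Not every mitochondrial list had a median as low. Mitochondrial ribosomal protein genes had a median log2 ratio of -0.01, with 36 of 69 (52.2%) below 1, against 50.1% of all measured genes. Protein import and inner membrane genes had a median of -0.06, with 17 of 24 (70.8%) below 1, from SLC25A4 up to TIMM10 at 1.81 (27 and 14 counts). Their summed ratio of 0.830 (0.820 to 0.840) was close to the 0.834 of the oxidative phosphorylation genes, though their median was nearer to 0. SLC25A4, a carrier, weighed heavily in that sum, with 8101 of its 47181 counts in the H2S library and 12395 of 53306 in the control library. Cytosolic ribosomal protein genes lay on the other side, with a median of 0.32 and 7 of 71 (9.86%) below 1. The differences between these lists could not be tested with 1 library per group.

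Genes that control the mitochondrial supply went both ways. Of 18 regulators of mitochondrial biogenesis, 5 (27.8%) were at least 1.2-fold lower and 5 (27.8%) at least 1.2-fold higher. These shares were near the 23.6% and 24.5% of all measured genes, and the median log2 ratio was -0.13. PPARGC1A, the best-known coactivator of these genes, had 853 counts in the H2S library against 739 in the control library, a ratio of 1.08 (0.980 to 1.20), and its relative PPARGC1B had 401 and 578, a ratio of 0.651 (0.571 to 0.740). NRF1 and GABPA, transcription factors that bind many oxidative phosphorylation promoters, had ratios of 0.910 and 0.888. TFAM, which packages mitochondrial DNA and activates its transcription, had 682 and 470 counts, a ratio of 1.36 (1.21 to 1.53). PPRC1 was highest at 1.48. ESRRB was lowest, at 0.442 (0.283 to 0.678) from 33 and 70 counts. The 3 measured enzymes of mitochondrial sulfide oxidation were all below 1, as were 50.1% of all measured genes. The summed ratio of the 3 enzymes was 0.823 (0.742 to 0.913). ETHE1, the persulfide dioxygenase, had 76 and 139 counts, a ratio of 0.513 (0.382 to 0.683). TST, a thiosulfate sulfurtransferase, and SUOX, sulfite oxidase, had ratios of 0.851 and 0.982. The SUOX interval of 0.801 to 1.20 included 1. Sulfide:quinone oxidoreductase was not among these 3 genes.

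Markers of several tissues moved between the 2 libraries as well, and their part in the ratios of the oxidative phosphorylation genes was not tested. Of all measured genes, 50.1% had a ratio below 1. Skeletal muscle markers were mostly higher in the H2S library: 26 of 31 had a ratio above 1. Their summed level was 27176 CPM in the H2S library against 19160 in the control library. They ran from CKMT2 to MYH1C, a myosin heavy chain, at 4.00 (3.85 to 4.16). CKMT2, the mitochondrial creatine kinase that couples the ATP supply to contraction, was the lowest, with 1138 and 2903 counts and a ratio of 0.368 (0.343 to 0.394). The cytosolic muscle creatine kinase CKM had 5660 and 3638 counts, a ratio of 1.46 (1.40 to 1.52). Cartilage markers were above 1 in 13 of 13, with a summed level of 26559 against 20464 CPM. Multiciliated cell markers were below 1 in 16 of 19, with a median log2 ratio of -0.20 and a summed level of 1918 against 2201, from DNAH5 at 0.701 to CCNO at 1.68. Leukocyte markers summed to 2026 against 4635 CPM, mostly through IGJ at 0.202, and 8 of 11 were below 1, up to CD79B at 1.60. Epithelial markers were below 1 in 7 of 12, with summed levels of 1495 and 1708 CPM, from TP63 at 0.490 to KRT14 at 2.29. Smooth muscle markers were below 1 in 3 of 9, with summed levels of 834 and 749 CPM, from ACTG2 at 0.780 to LMOD1 at 2.32. Those sums rest largely on DES, at 447 and 428 CPM, while MYH11 was at 14.2 and 11.3. Adipocyte markers were below 1 in 2 of 7, with summed levels of 501 and 461 CPM, from CD36 at 0.796 to PLIN1 at 1.72. Erythrocyte markers were below 1 in 1 of 4, from HBAD at 0.960 to HBAA at 2.13, at summed levels of 32.3 and 18.2 CPM. Of the other 5 erythrocyte markers listed, all under the count minimum, HBG1 was at 0 in both libraries.

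**Figure D4:**
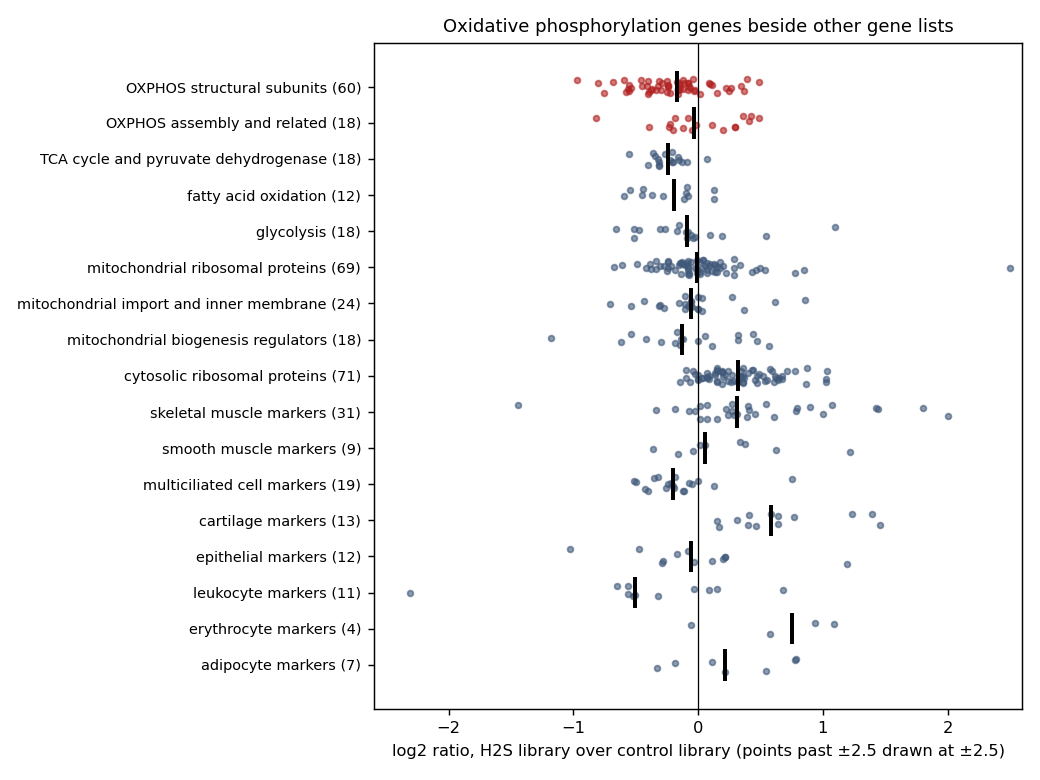
Log2 ratio (x axis, H2S library over control library) of each measured gene in the oxidative phosphorylation groups (red) and in other gene lists (blue), with the number of genes in parentheses and black bars at the medians; 1 point past the limit of 2.5 is drawn at it. Among the medians below 0 are those of leukocyte markers (-0.51), the citric acid cycle (-0.25), fatty acid oxidation (-0.20), multiciliated cell markers (-0.20) and structural subunits (-0.17). Among those above 0 are erythrocyte markers (0.75), cartilage (0.59), cytosolic ribosomal proteins (0.32) and skeletal muscle (0.31).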

How the data were processed

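The mRNA table holds raw counts per gene as the authors deposited them, with no scaling. The submitters' processing notes name HISAT2 as the aligner, and its version, the genome build, the annotation, the counter and the strand setting are not given there. Reads of a gene and an overlapping or antisense neighbour may therefore be mixed. Depth was 20839798 (H2S) and 18875586 (control) counts. Library sizes were scaled with TMM in edgeR 4.0.16 (R 4.3.3). Ratios have exact (Clopper-Pearson) 95% intervals of the conditional binomial share (scipy 1.17.1), which cover counting error only. Interval coverage was tested on data simulated with counting error only, so that test does not cover variation between birds or library preparations. Genes needed 20 counts in 1 library. Alternatives were total counts, DESeq2 1.42.0 size factors, upper-quartile scaling, other count minimums, a fold of 1.5 and other member sets. Members, gene lists and alternatives were chosen with earlier results of these data known. Named genes are those at the ends of each complex and list, isoforms, low-count members and others picked for their role, after values were seen. COX7B was named by its RefSeq gene number (table of assembly GRCg7b, names only). The deposited miRNA table was not used. Coding lengths were not used here, so levels are not compared between genes and the planned choice of genes by level per length was not made. Single values of some genes are not reported here, though the counts and medians include them.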

Additional observations from a re-analysis of the deposited data

How the results depend on the processing

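With 1 library per group no library could be left out. No paired analysis was possible because the mRNA groups share only 1 replicate number. Levels per kilobase and medians by coding length were planned but not run, since coding lengths were not used here. Under the other scalings the medians of the complexes kept their sign, at -0.21 for all members with total counts and -0.15 with DESeq2 or upper-quartile scaling. Scaling by total counts, which shifts all genes by -0.05 on the log2 scale, gave 1 member at least 2-fold lower (NDUFA6) and moved the cartilage list to 0.54, ATP5A1 to 0.639 and ATP5B to 0.656. With a minimum of 1 count in each library 2 members (COX14 and COX20) were at least 2-fold higher, and the median of the assembly factors turned from -0.03 to 0.05. At a fold of 1.5, 6 of 78 members were lower and 0 higher, where 9.31% and 10.6% of all measured genes were. At the counts of NDUFA1, NDUFA2 and SDHAF1, all under 100, the intervals included 1.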

Other observations

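Glycolysis genes, which supply mitochondria with pyruvate, had a median log2 ratio of -0.09 and a summed ratio of 1.02 (1.01 to 1.03). Of the 18, 14 (77.8%) were below 1, against 74.4% of the oxidative phosphorylation genes and 50.1% of all measured genes. At 1.2-fold, 6 (33.3%) were lower and 2 (11.1%) higher, against 32.1% and 14.1% of the oxidative phosphorylation genes. Over all measured genes these shares were 23.6% and 24.5%. PFKP, an isoform of phosphofructokinase, stood alone at 2-fold, with 7828 counts in the H2S library against 3432 in the control library, a ratio of 2.14 (2.05 to 2.23), while PFKM and PFKL had ratios of 0.959 and 0.942. ENO2, an enolase, was lowest at 0.635. Genes that respond to low oxygen had a median log2 ratio of 0.01, with 7 of 15 below 1. They ran from PDK1, a kinase that inhibits pyruvate dehydrogenase, at 0.714 (1154 and 1515 counts) to CA9, a carbonic anhydrase, at 1.73 (81 and 44 counts).

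Among mitochondrial ribosomal protein genes MRPS34 had 136 counts in the H2S library against 8 in the control library, a ratio of 15.9 (7.87 to 37.7), far outside the other members, which ran from 0.626 (MRPS28) up to MRPL43, at 67 and 35 counts.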
